A study of Arabidopsis thaliana with 4 samples.

Results

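In 298 of 3996 alternative 3' splice site events of Arabidopsis thaliana with complete coordinates, the acceptors lay 4 bp apart on the Col genome, and these events are described here. They belonged to 280 genes and were chosen by coordinates alone, from a table of 14133 alternative splicing events of all types. The material was polyadenylated RNA from 14-day-old seedlings of 2 strains (ecotypes), Col and Ler, whose genomes differ in sequence. Both were grown alike on Murashige and Skoog plates with 1% sucrose at 22 °C, in short days (8 h light, 16 h dark). First leaf is the labelled source while the extraction text speaks of shoots, and expression of leaf marker genes was not analysed here. There were 2 samples per ecotype, but the table gives 1 pooled value for Col and 1 for Ler, so no value below has an SD or a test over samples, and the read depth is unknown.

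A 3' splice site, or acceptor, ends in the bases AG, and the spliceosome usually takes an AG that it meets soon after the branch point. Where AG follows closely on AG, either may be used, and the mature RNAs then differ by the few bases between them. A pyrimidine before the AG is favoured over adenine, and guanine is the least favoured, as known from animals, yeast and plants. A step of 4 bp is not a whole number of codons, so in coding sequence the choice between the acceptors also changes the reading frame. Transcripts whose reading frame stops well before the last exon junction are often degraded by nonsense-mediated decay, which also acts in Arabidopsis.

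The level of an event is the share of the longer exon, which begins after the first (upstream) AG, among transcripts spliced at either acceptor of the pair. The segment between the acceptors holds any pair of bases and the second AG, so every event carries the motif AGNNAG, on the transcribed strand. All 298 pairs ended in AG at both acceptors, as did 3942 of the 3996 alternative 3' events, and the intron began with GT in 296 and with GC in 2. Of 131152 annotated introns of protein-coding genes, 6.60% had a further AG 4 bp before or after their acceptor, 0.574% before it and 6.08% after it. Introns in the events made up 358 of these 8661, or 4.13%.

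The sequences are shown for the events that the results below turn on. Each is 30 bases of the Col reference (RefSeq TAIR10.1) in the sense of the transcript: 16 bases of intron up to the first AG, the 4 bp segment in capitals, and 10 bases that follow it. The first group has the 5 events with the lowest mean level of the longer exon over Col and Ler, leaving out those listed at 0 in Ler. Here nearly all transcripts passed over the first AG, and in each of the 5 an adenine precedes the first AG and a cytosine the second.
TROL: ctctttgaatggaaagCCAGgtttgatgga
CcdA: ctaatttccccttaagACAGgatcaagcca
ISA3: gtggatttttcccaagTCAGgtgggctgag
DPE1: atacttttgccataagACAGggagttatta
AT1G63610: tctatttctgattaagCCAGgggggtgatg

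The event with the next lowest mean, of AT1G35420, an alpha/beta-hydrolase superfamily protein, has a guanine before the first AG and a thymine before the second, with 2.74% in Col and 1.89% in Ler.

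The second group has the 5 events with the highest mean level over both ecotypes, where nearly all transcripts used the first AG, which follows a thymine or a cytosine.
PRXR1: tgtggggttggtgtagGTAGgaggacctta
COR15B: atatatatatatatagAAAGaaagcttctg
PHS2: actgtggttgttttagGGAGataagcgatg
PnsB5: gcgcttttgttaatagGAAGatttcaagta
CAX1: acgaaatttggtacagGAAGatgagtatga

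The third group has the 5 events whose levels were nearest to an even split in both ecotypes.
AT1G33050: accttgatgtgaaaagGAAGgataagtact
emb1027: gggttttgtaacctagACAGaaaaattgag
PGLCT: ttacggttataaaaagTCAGacaaaatgca
AT2G19730: ttttggtgtggtgaagGTAGgtatttgaaa
AT1G22750: taatctttggttggagGAAGcaaagttaaa

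The last group has events with large differences between the ecotypes, beginning with the pair that the authors marked as different.
SK41: ctacaaattctactagGAAGatcggctctt
AT5G44730: atttgactcttttcagGCAGagtgggattt
AT5G44580: atggaactttcaatagATAGatcattgacc
AT2G42170: gtaaaacatattgaagGCAGgatatgctgg
AT5G46430: tgttgattttgttgagGAAGaggagtaaaa
AT4G02900: ttaatttattatatagACAGgttatggagg

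The first AG was the more used acceptor in most events. The median level of the longer exon was 91.0% in Col (quartiles 63.9 and 98.0%) and 91.3% in Ler (60.1 and 97.6%), and levels ran from 0.389 to 99.98% in Col and from 0 to 99.94% in Ler. The longer exon was the more used form in both ecotypes in 224 events (75.2%) and the shorter exon in 63. In Col, 120 events had a level of 95% or more, 81 of 80 to 95%, 55 of 20 to 80%, 30 of 5 to 20% and 12 under 5%. Substantial use of both acceptors, with levels between 20 and 80% in both ecotypes, was found in 46 events (15.4%).

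Of the 5 events with the lowest mean, those of TROL, CcdA, ISA3 and DPE1 lie in genes for chloroplast proteins. So do those of COR15B and PnsB5, which are among the 5 with the highest mean. The share of genes for chloroplast proteins among all the events was not determined, and a link with the level was not tested. TROL, a thylakoid membrane protein that binds ferredoxin-NADP reductase, had the longer exon at 0.389% in Col and 0.320% in Ler (segment chr4:456785-456788 in TAIR10). CcdA, needed for the assembly of c-type cytochromes in the thylakoid, was at 0.404% and 0.486% (chr5:22052173-22052176). ISA3, a debranching enzyme of starch breakdown, was at 1.65% and 0.887% (chr4:5787199-5787202), and DPE1, a glucanotransferase of the same pathway, at 1.93% and 1.33% (chr5:25926216-25926219). The uncharacterised gene AT1G63610 was at 1.28% and 3.26% (chr1:23584346-23584349). The segments of these 5 genes all lie in the coding span.

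Among the 5 with the highest mean, PRXR1, a peroxidase, had the longer exon at 99.95% in Col and 99.93% in Ler (chr4:11647670-11647673). COR15B, a cold-regulated chloroplast protein, was at 99.91% and 99.94% (chr2:17709416-17709419), and its interval was 8 bp shorter in Ler. PHS2, the cytosolic alpha-glucan phosphorylase, was at 99.88% and 99.93% (chr3:17306119-17306122). This was the only event with a guanine before the second AG, and its interval was 4 bp longer in Ler. PnsB5, a subunit of the chloroplast NDH complex, was at 99.87% and 99.82% (chr5:17580845-17580848), and CAX1, a calcium/proton exchanger of the vacuole, at 99.85% and 99.78% (chr2:15991069-15991072).

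Near the middle, emb1027, an arginyl-tRNA synthetase that charges tRNA with arginine, had the longer exon at 47.3% in Col and 45.7% in Ler (chr4:13312267-13312270, coding span). PGLCT, which exports glucose from the chloroplast, was at 54.3% and 54.9% (chr5:5272895-5272898, 5' UTR side). AT2G19730, of the ribosomal protein L28e family, was at 45.4% and 44.4% (chr2:8511739-8511742, 5' UTR side). The uncharacterised genes AT1G33050 (47.4% and 50%; chr1:11968676-11968679, coding span) and AT1G22750 (46.3% and 55.9%; chr1:8052606-8052609, coding span) complete the 5 most even events. In 4 of the 5 both forms are annotated, and AT1G33050 has only the shorter exon in the annotation.

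The level differed with the base before the first AG. With a cytosine there (83 events), the median level of the longer exon was 96.6% in Col (quartiles 90.2 and 98.7%) and 96.2% in Ler. With a thymine (142 events) it was 91.6% (76.0 and 98.1%) and 93.3%, and with an adenine (65 events) 73.8% (18.4 and 91.0%) and 72.5%. With a guanine (8 events) it was 8.82% (4.59 and 12.7%) and 11.5%. The longer exon exceeded 50% in Col in 76 of the 83 events with cytosine, 114 of the 142 with thymine, 39 of the 65 with adenine and 0 of the 8 with guanine. The 8 events with guanine ran from 2.74 to 46.3% in Col and from 1.89 to 58.3% in Ler, where AT1G22750 and AT5G46430 exceeded 50%. The quartile ranges of the cytosine and thymine groups overlapped widely, and that of the adenine group spanned most of the scale. Events of 1 gene share its transcripts, and these groups were compared without a test.

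**Figure D1:**
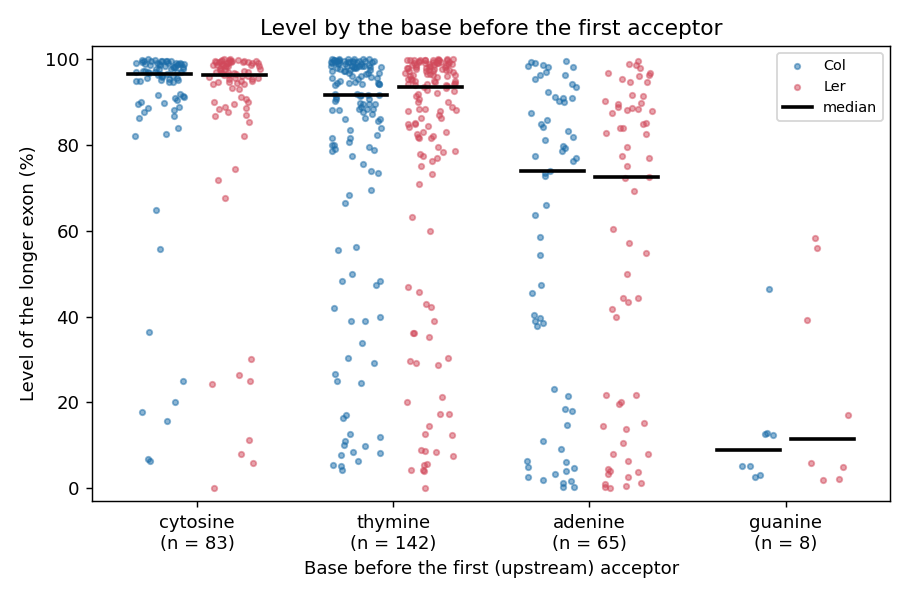
Level of the longer exon (%) in Col (blue) and Ler (red), 1 point per event and ecotype, grouped by the base before the first acceptor; black bars are medians. The medians in Col were 96.6% with cytosine, 91.6% with thymine, 73.8% with adenine and 8.82% with guanine, and the 8 events with guanine were all below 50% in Col.

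Composition at the acceptors differed from that of introns at large, which were counted at annotated acceptors only. The events also include unannotated acceptors, as only the longer exon is annotated in 189 and only the shorter exon in 43. Cytosine preceded the first AG in 27.9% of the events and the second in 45.0%, against 63.5% of all annotated introns. Thymine preceded the first AG in 47.7%, the second in 32.2% and the AG of 28.2% of annotated introns. Adenine was found in 21.8% and 22.5%, against 7.23% of annotated introns.

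The base before the second AG was compared within groups that share the base before the first. With adenine first and cytosine second (32 events), the median level of the longer exon was 39.3% in Col and 40.8% in Ler. With adenine first and thymine second (18 events) it was 88.9% and 87.6%, and with adenine before both (15 events) 78.5% and 82.5%. With thymine first, the median was 88.3% and 88.4% where cytosine was second (63 events), 91.0% and 91.4% where thymine was (43 events) and 96.0% and 95.4% where adenine was (35 events). With cytosine first, it was 96.3% and 95.5% with cytosine second (38 events), 96.9% and 96.3% with thymine (30 events) and 96.4% and 97.5% with adenine (15 events). With guanine first, it was 5.15% and 5.97% with thymine second (5 events) and 29.5% and 57.1% with adenine (2 events), and the single event with cytosine second was at 3.05% and 2.10%.

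The same order of the bases was seen within annotation classes and places. Where both forms are annotated, the median in Col was 91.9% with cytosine first (15 events), 77.4% with thymine (27 events) and 63.9% with adenine (20 events). In the coding span it was 97.0% (66 events), 94.0% (120 events), 73.8% (53 events) and, with guanine, 5.13% (6 events). On the 5' UTR side it was 94.8% (14 events), 84.8% (20 events), 74.9% (12 events) and 12.6% (2 events), but for the latter 48.7% in Ler. The first base of the longer exon was also compared, without a test. With guanine there (131 events) the median was 94.4% in Col and 94.5% in Ler. With adenine (90 events) it was 90.1% and 88.4%, with cytosine (46 events) 89.8% and 89.7%, and with thymine (31 events) 85.5% and 87.7%. The lower quartile in Col was 80.9% with guanine, 39.8% with adenine, 45.5% with cytosine and 18.7% with thymine. Pyrimidine share, intron length and a further AG varied with the level little. The share of pyrimidines in the 30 bases before the first AG had a median of 60%, as in the other alternative 3' events, and across events its Spearman correlation with the level was -0.01 in Col and 0.03 in Ler. The intron of the longer-exon form had a median of 108.5 bp (68 to 1216 bp), and its correlation with the level was -0.15 and -0.16 over the 298 events, which share libraries and in part genes. A further AG within the 14 bases before the first one was present in 16 events, with a median level of 90.6% in Col, against 91.0% in the others.

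Where a single form is annotated, it was the more used one in most events. Only the longer exon is annotated in 189 events (63.4%), both forms in 64 (21.5%), only the shorter exon in 43 (14.4%) and neither in 2. Where only the longer exon is annotated the median level was 96.3% in Col (quartiles 89.5 and 98.8%) and 96.0% in Ler, and the longer exon was the more used form in both ecotypes in 184 of the 189. Where only the shorter exon is annotated the median was 11.1% (5.05 and 22.2%) and 11.3%, with the shorter exon more used in both ecotypes in 39 of the 43. Where both are annotated it was 81.1% (35.7 and 91.3%) and 82.2%. In the events of other step sizes the medians in Col were 96.6%, 4.86% and 56.9% in the same order. The direction of the level was itself read from those other events, so their order is not independent of that choice.

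**Figure D2:**
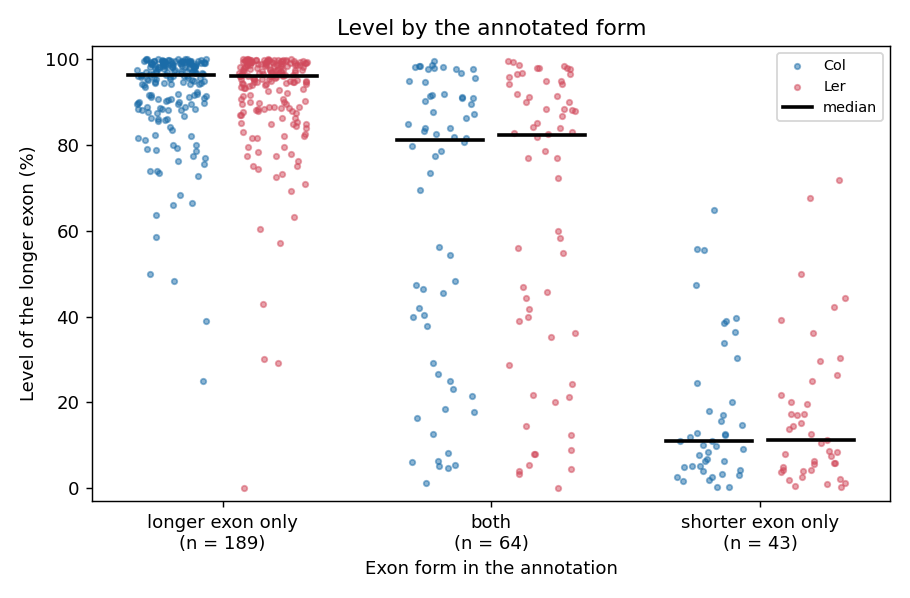
Level of the longer exon (%) in Col (blue) and Ler (red), 1 point per event and ecotype, grouped by which form the annotation holds; black bars are medians, and the 2 events with neither form annotated are left out. The medians in Col were 96.3% with only the longer exon annotated, 81.1% with both and 11.1% with only the shorter exon.

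Most events lie where the choice of acceptor changes the protein. The segment was in the coding span in 245 events (82.2%), on the 5' UTR side in 48, on the 3' UTR side in 4 and in a gene without a match in the annotation in 1. The acceptors were used more evenly on the 5' UTR side than in coding sequence, described here without a test. The less used acceptor of the pair had a median share of 13.3% in Col and 13.5% in Ler on the 5' UTR side, against 5.15% and 5.23% in the coding span. It exceeded 20% in Col in 14 of 48 events (29.2%) on the 5' UTR side and in 40 of 245 (16.3%) in the coding span. Both forms are annotated in 30 of the 48 events on the 5' UTR side.

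For 243 of the coding events the reading frame could be followed through a gene model that holds 1 of the acceptors, taking the model with the longest coding sequence. The frame of that model used the longer exon in 183 events and the shorter exon in 60. The other form, here the frame-shifted form, reached a stop codon after a median of 27 nt past the acceptor (quartiles 11 and 59.5 nt, up to 261 nt). Its coding sequence was shorter in 236 events. Its length in codons, counting those after the shift, had a median of 46.5% of the length in the model. The stop lay at least 50 nt before the last exon junction in 206 events (84.8%), the position usually linked to nonsense-mediated decay. Of the other 37, 31 events concern the acceptor of the last exon.

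The frame-shifted form was the minor form in most of these events. Its median share was 5.11% in Col (quartiles 1.77 and 12.7%) and 5.23% in Ler (1.82 and 13.4%). It was under 5% in 119 events in Col and 117 in Ler, over 20% in 40 and 39, and over 50% in 8 and 7. The share was lower where the frame uses the longer exon (median 3.62% in Col and 3.88% in Ler, 183 events) than where it uses the shorter exon (11.6% and 12.5%, 60 events). Events with an early stop had a median of 5.44% in Col and 5.36% in Ler, and those without one 2.36% and 3.03%. These are shares in the RNA that was sequenced, and the loss of transcripts by decay was not measured.

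**Figure D3:**
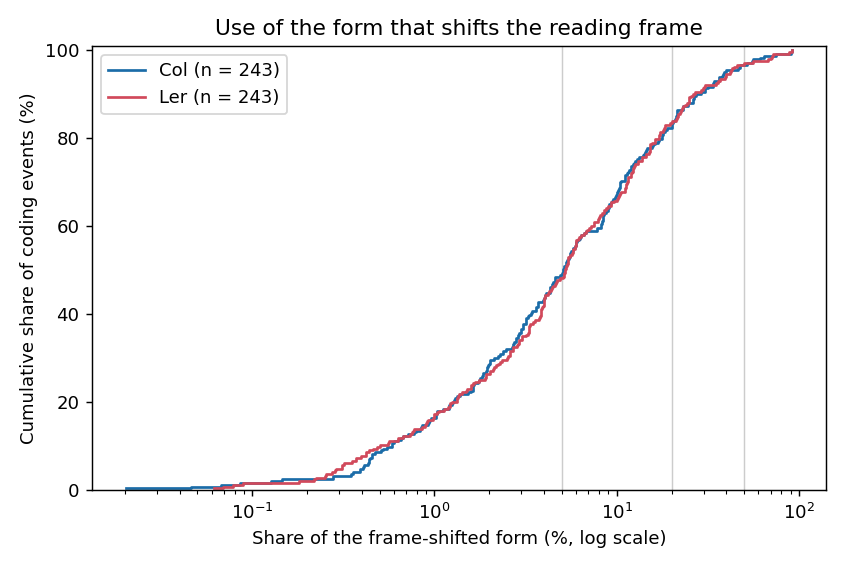
Cumulative share of the 243 coding events (%, vertical axis) by the share of the frame-shifted form (%, log scale) in Col (blue) and Ler (red); grey lines mark 5, 20 and 50%. The curves run close together, with medians of 5.11% in Col and 5.23% in Ler, and 8 events in Col and 7 in Ler lie above 50%.

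In 9 events the form that leaves the frame of the longest model exceeded 50% in 1 ecotype or both, and they are named after their values were seen. PSAN, a lumenal subunit of photosystem I, had the longer exon at 91.9% in Col and 91.2% in Ler (chr5:25628810-25628813). Both of its forms are annotated, the longest model uses the shorter exon, and the longer exon stops after 171 codons in place of 181. AT1G73650, annotated as a steroid dehydrogenase-like protein, had its shifted form at 90.2% and 87.7%, which ends after 290 codons in place of 302. In AT1G04390, a BTB/POZ domain protein, the shifted form made up 75% and 70% and ends after 290 of 1002 codons. In ABA3, the molybdenum cofactor sulfurase needed for abscisic acid synthesis, it made up 51.8% and 70.8% (chr1:5662937-5662940) and ends after 448 of 842 codons. In AT5G51620, a UPF0172 family protein, it made up 64.7% and 71.7%, and in AT4G12680, an uncharacterised protein, 55.8% and 67.5%. The remaining events exceeded 50% in 1 ecotype only, and none of them was marked by the authors. They were AT3G12100, a cation efflux protein (55.6% in Col and 36.1% in Ler), AT4G02900 (61.1% and 22.2%) and AT1G22750 (46.3% and 55.9%).

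Levels in Col and Ler were close for most events. The median difference, Col minus Ler, was -0.05 points and the median absolute difference 1.62 points, against 2.49 points over all 3996 alternative 3' events. The levels differed by at most 5 points in 238 events (79.9%), against 66.4% of all alternative 3' events, and by over 10 points in 25 (8.39%), against 17.7%. In Col, 40.3% of the 4 bp events had a level of 95% or more, against 26.0% of all alternative 3' events. Levels of 20 to 80% were found in 18.5%, against 25.3%. Levels near a limit of the scale have less room to differ, and the differences were not compared at matched levels. Col was higher in 140 events, Ler in 155, and 3 were equal. Over the 298 events, which share the same libraries, the levels of Col and Ler had a Pearson correlation of 0.950 and a Spearman correlation of 0.932, and the former was 0.981 without the 3 events listed at 0 in Ler.

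**Figure D4:**
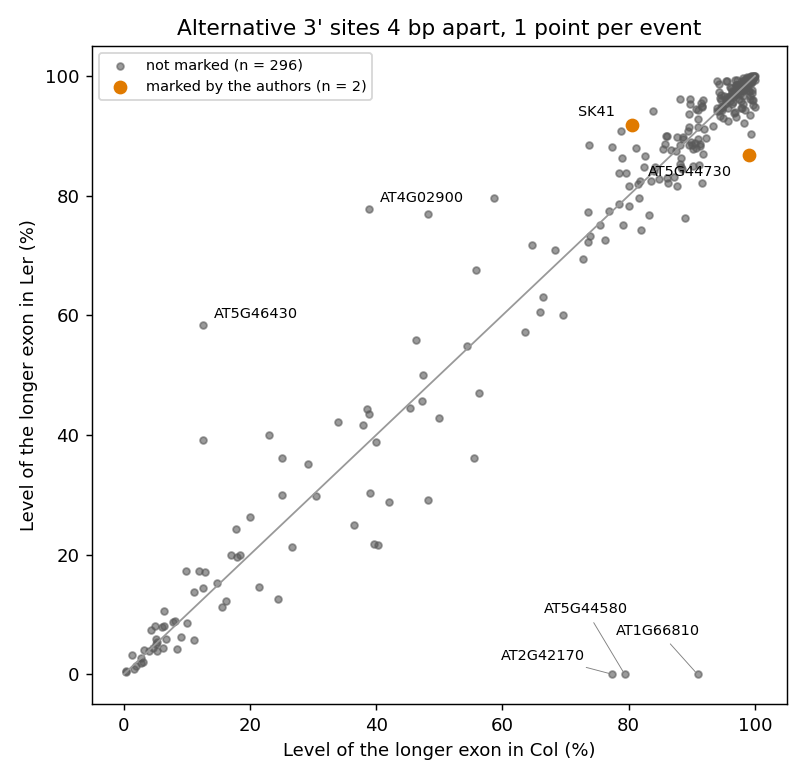
Level of the longer exon (%) in Col (horizontal axis) and Ler (vertical axis), 1 point per event; orange points are the 2 events marked by the authors and the grey line is equality. Most of the 298 events lie along the line, and 3 events listed at 0 in Ler lie at 77.4 to 90.9% in Col.

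The authors' deposited table marked 2 of the 298 events (0.671%) as different between the ecotypes, 1 in each direction. Over all events it marked 7.46% (4.08% as higher in Col and 3.38% as higher in Ler), and over the alternative 3' events 6.23% (3.58% and 2.65%). A q value under 0.05, whatever the difference, was listed for 22 of the events (7.38%) in the authors' deposited table, against 14.3% of all events and 15% of the alternative 3' events. Adding to that q a minimum of 10 points left 4 events (1.34%), against 8.41% of all and 7.31% of the alternative 3' events in the authors' deposited table. By the mark with at least 20 points it was 0, against 4.2% and 3.7% in the authors' deposited table. The shares of the 4 bp events lie below the background under each rule, which was described without a test.

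The event of SK41, a shaggy-like kinase of the GSK3 type, was marked as higher in Ler, with the longer exon at 80.6% in Col and 91.8% in Ler (q = 0.0266 in the authors' deposited table; chr1:3199620-3199623, 5' UTR side). Its interval was 4 bp longer in Ler than in Col, so the intron sequence differs between the genomes. A further acceptor 71 bp upstream of the pair in the same intron was also in use. The longer exon it gives was at 14.3% in Col and 7.10% in Ler against the first AG of the pair, and neither value was marked. A second pair of SK41 acceptors 4 bp apart, in another intron of the 5' UTR side, was at 73.5% and 72.2% (chr1:3200100-3200103).

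The event of AT5G44730, a haloacid dehalogenase-like hydrolase, was marked as higher in Col, with the longer exon at 99.1% in Col and 86.8% in Ler (q = 7.67e-07 in the authors' deposited table; chr5:18045881-18045884, coding span). Cytosine precedes both AGs, only the longer exon is annotated, and the interval has the same length in both genomes. The shifted form was thus at 0.948% in Col and 13.2% in Ler. It ends after 169 of 255 codons, past the last exon junction. Another intron of the gene has another such pair, at 99.6% in Col and 95.1% in Ler (q = 0.00161 in the authors' deposited table, no mark; chr5:18046171-18046174). Both pairs of this gene had the lower level in Ler, and the interval of the second was 3 bp longer there.

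The largest differences carried no mark. In AT1G66810, a CCCH-type zinc finger protein, the longer exon had a level of 90.9% in Col but is listed at 0 in Ler (q = 5.26e-05 in the authors' deposited table; 5' UTR side). Its interval was 1 bp longer in Ler, so an offset of coordinates between the genomes cannot be told apart from a switch. AT2G42170, of the actin family, was at 77.4% and listed at 0 (chr2:17578609-17578612, 5' UTR side), and the uncharacterised AT5G44580 at 79.4% and listed at 0 (chr5:17979543-17979546). The q value of both is 1 in the authors' deposited table. AT4G02900, annotated as an early-responsive to dehydration family protein, was at 38.9% in Col and 77.8% in Ler (q = 0.11 in the authors' deposited table; chr4:1285698-1285701, coding span).

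In AT5G46430, a ribosomal protein L32e, the longer exon was at 12.6% in Col and 58.3% in Ler without a mark (q = 0.00147 in the authors' deposited table; chr5:18833415-18833418, 5' UTR side). A guanine precedes its first AG in Col. In Ler the pair itself was hardly used. A further acceptor 2 bp upstream of the first is listed at 0 in Col and took 99.2% in Ler against the first AG and 99.5% against the second, and the authors' deposited table marks both of those events. In the Col reference that acceptor does not end in AG, and Ler sequence was not used here. The pair of AT5G44580 was a minor one in both ecotypes. Against an acceptor 86 bp downstream its first AG took 1.18% in Col and is listed at 0 in Ler.

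The other 18 events with q under 0.05 in the authors' deposited table differed by under 10 points, and the smallest difference was 0.363 points. Of the 22 events, 17 had levels over 90% in both ecotypes, 12 were higher in Col and 10 in Ler. The smallest q was that of GGT1, the photorespiratory glutamate:glyoxylate aminotransferase of peroxisomes, at 99.98% in Col and 94.8% in Ler (q = 3.23e-287 in the authors' deposited table; chr1:8269274-8269277, coding span), chosen after its value was seen. Its shifted form was at 0.0202% in Col and 5.22% in Ler. PMDH2, a peroxisomal malate dehydrogenase, was at 99.5% and 99.9% (q = 1.41e-06 in the authors' deposited table). Conversely, 21 of the 25 events that differed by over 10 points had a q of 0.05 or more, and 21 of the 25 had a level between 20 and 80% in at least 1 ecotype. Of the 25, 12 lay on the 5' UTR side and 8 had another interval length in Ler, against 46 of all 298. By the listed levels, the more used form switched between the ecotypes in 9 events, of which 2 had q under 0.05 and 0 were marked. These 9 include the 3 events listed at 0 in Ler. The 2 with q under 0.05 are AT1G66810 and AT5G46430, whose limits are given above.

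In 17 genes, 2 or more events of this kind were found, 35 in all. DPE1 had 3 pairs: 1 was almost wholly spliced to the second AG (1.93% in Col and 1.33% in Ler for the longer exon), and the others almost wholly to the first AG (95.9% and 96.4%, 98.1% and 97.4%). ISA3 had 2 pairs at 1.65% and 0.887% and at 12.6% and 14.4%. SEX4, the glucan phosphatase of starch breakdown, had pairs at 98.7% and 98.1% and at 99.4% and 99.7%. PnsL1, another subunit of the chloroplast NDH complex, had pairs at 97.2% and 98.5% and at 98.7% and 98.8%. In AT1G14270, a CAAX protease family protein, the pairs were opposite, at 97.8% and 94.6% and at 17.7% and 24.3%. In ABA3 the second pair was at 12.9% and 17.1%, with a guanine before its first AG.

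In SWEETIE, VPS28-1, IREG3 and ATATH8 both pairs were high. SWEETIE, a HEAT repeat protein of carbohydrate metabolism, had pairs at 89.6% and 93.7% (Col, then Ler) and at 89.9% and 88.9%. VPS28-1, of the ESCRT-I sorting complex, had pairs at 94.7% and 96.9% and at 88.1% and 85.2%. IREG3, a metal transporter of the ferroportin family, had pairs at 96.4% and 97.1% and at 98.0% and 95.4%. The kinase gene ATATH8 had pairs at 98.4% and 97.8% and at 95.6% and 96.5%. AT5G51620, whose pair at 64.7% and 71.7% is given above, had a second pair at 98.4% and 98.6%.

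Runs of 3 acceptors at 4 bp spacing occurred in AT1G04830 and AT1G73650, where the shared middle AG links the pairs. In the Col reference the first pair of each, with the segment in capitals and the third AG in the bases after it, reads as follows.
AT1G04830: aatgattctgtggtagTTAGtcagaaatca
AT1G73650: gttgtatgtgtgcaagAAAGttagggtaga

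In AT1G04830, a Rab-GAP domain protein, the first AG took 7.77% in Col and 8.75% in Ler against the middle one, and the middle took 85.5% and 87.8% against the third. The middle AG was therefore the most used of the run, and it alone keeps the frame of the longest model. In AT1G73650 the first took 21.4% and 14.5% against the middle one, and the middle took 90.2% and 87.7% against the third, so here too the middle AG led. The longest model of AT1G73650, however, uses the third.

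The same pair of acceptors could be used differently from different donors. In GAUT3, a galacturonosyltransferase of the family that builds pectin, a pair at chr4:17939442-17939445 was joined to donors 8 bp apart. From the first donor the longer exon was at 30.4% in Col and 29.7% in Ler, and from the second at 89.5% and 91.4%. The more used introns are thus of 277 bp and 265 bp, which differ by 12 bp, a whole number of codons, and each is the annotated one for its donor. In AT5G37380, a DnaJ-domain chaperone, a pair on the 5' UTR side was at 42.0% and 28.8% from 1 donor and at 40% and 38.9% from the other.

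More than 2 acceptors from the same donor were listed for 34 of the events. With 3 acceptors at the donor (28 events) the median was 87.9% in Col and 89.1% in Ler, against 91.2% and 91.9% with 2 (264 events). Introns of the pairs also appear as retention events. The intron of the more used form did so in 37 cases, with a median retention level of 21.7% in Col and 26.5% in Ler. The intron of the less used form did so in 88 cases, with medians of 63.1% and 61.3%. The introns of a pair differ by only 4 bp, and a retention level set against a rarer junction is higher by construction. These medians therefore do not compare how often the forms are retained.

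By annotated product, 16 events lay in protein kinase genes, 12 in genes with chloroplast, photosystem, chlorophyll or thylakoid in the product name, 9 in transcription factors, 7 in transporters, 4 each in ribosomal protein, ubiquitin-related and RNA-binding genes and 0 in disease resistance genes. The kinase events had a median level of 86.5% in Col and 84.9% in Ler, and 1 of them, SK41, was marked, as the only one in these classes. Others in kinase genes were MPK2, a MAP kinase (12.5% and 39.1%, guanine before the first AG), and FEI2, a receptor-like kinase of cell wall synthesis (58.6% and 79.5%). The 12 events with a chloroplast word in the product name had a median of 93.9% in both ecotypes and all differed by at most 5 points. They included AT1G76450, a PsbP family protein (97.1% and 99.4%), and RPL3P, a ribosomal protein of the plastid (6.25% and 4.35%). Genes for chloroplast proteins whose product name lacks these words, such as CcdA and DPE1, are not in this class. Among the transporters, AT5G05310 was at 82.0% and 74.3% and AT4G32272 at 63.6% and 57.1%. In the other classes, the homeobox gene HB31 was at 56.2% and 46.9%, AT4G39140, a RING/U-box protein, at 77.4% and 88.0%, and UBC30, a ubiquitin-conjugating enzyme, at 99.6% and 97.6%. The RNA-binding genes AT5G47420 and AT1G13730 were at 88.1% and 96.2% and at 81.6% and 79.5%.

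Steps of 3 and 5 bp lie just outside the class. With a step of 3 bp, which keeps the frame (516 events), the median level of the longer exon was 55.6% in Col and 54.5% in Ler, and with 5 bp (292 events) 75.1% and 78.7%, against 91.0% and 91.3% with 4 bp. The less used acceptor had a median share of 8.95% and 15.4% with 3 bp, 5.85% and 5.72% with 4 bp and 9.26% and 7.94% with 5 bp. The authors' deposited table marked 66 of the 3 bp events (12.8%) and 6 of the 5 bp events (2.05%). In that table q was under 0.05 for 25% of the 3 bp events and 5.82% of the 5 bp events, against 7.38% with 4 bp. The Pearson correlation of Col and Ler levels was 0.921 with 3 bp and 0.961 with 5 bp, against 0.950 with 4 bp. By these 2 measures the ecotypes were closer with 5 bp than with 4 bp. The levels differed by over 10 points in 24.6% and 12.3%, against 8.39% with 4 bp. Some larger steps had levels nearer to those of 4 bp. With 7 bp (151 events) the medians were 89.3% and 88.6%, and 11.3% differed by over 10 points. With 6 bp (201 events) the medians were 87.2% and 86.0%, and 19.4% did. With a step of 3 bp the base before the first AG ordered the medians in Col as 84.6% for cytosine, 28.8% for thymine and 8.04% for adenine, each below the value for 4 bp. The 4 events with guanine had a median of 40.7%, above that of 8.82% for 4 bp.

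**Figure D5:**
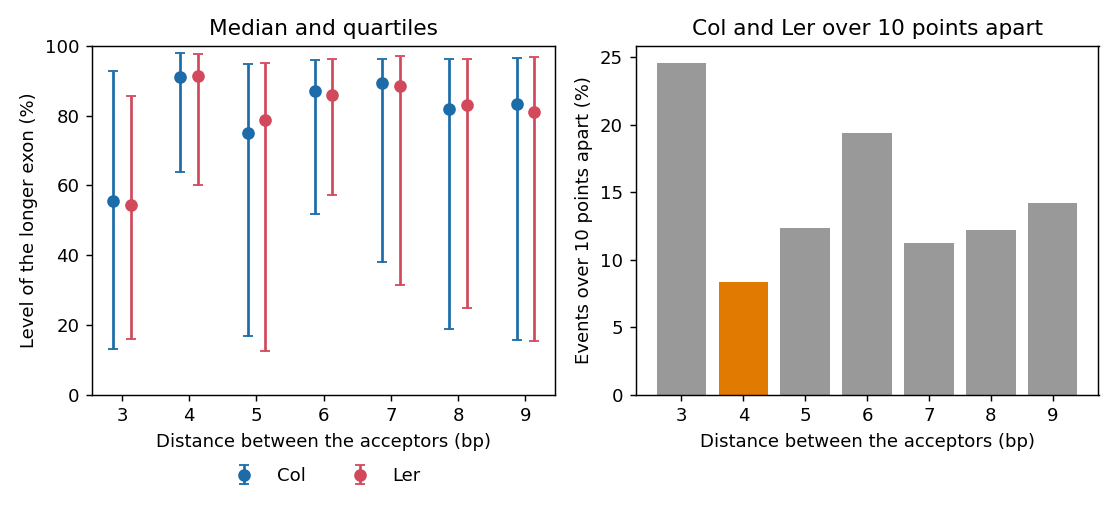
Left, level of the longer exon (%) by the distance between the acceptors (bp) in Col (blue) and Ler (red), as medians with bars from the lower to the upper quartile over events; right, share of events (%) whose levels differ by over 10 points between the ecotypes, with 4 bp in orange. The 4 bp events have medians of 91.0 and 91.3%, and those of 7 bp 89.3 and 88.6%. Of the 4 bp events 8.39% differ by over 10 points, against 24.6% at 3 bp, 12.3% at 5 bp and 11.3% at 7 bp.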

How the data were processed

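Per the submitters' processing notes, TopHat and TAIR10 were used, without versions. The inclusion level is a fraction deposited by the authors, 1 value per ecotype, per the file headers, and was multiplied to percent. The q value and direction mark are those of the authors' deposited table. No source used here states the read minimum, the test or how samples were pooled. Members and gene classes were chosen with earlier results of these data known. The design foresaw descriptions without tests.

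The table's coordinates flank the intron: with them, 296 of 298 events held an annotated intron of the RefSeq copy (TAIR10.1), and 0 when shifted by 1 bp. Genes matched for 297 events. Where 3 acceptors share a donor, the log2 odds of neighbouring pairs added up to those of the outer pair (median deviation 0.033 over 325 triples in Col, 0.042 over 315 in Ler), so a level is the share within its pair. The direction of the level (longer exon) was read from the events of other step sizes by annotated form. Ler sequence was not used here. Whether reads kept their strand is not stated, so overlapping genes may share reads.

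Windows and reading frames were tested on simulated data (200 of 200 planted cases recovered). Named events were the marked ones, the 5 largest unmarked differences, the 5 most even, the 5 with the highest and the lowest mean level over both ecotypes (without levels of 0), genes with several events, and the 2 largest differences of each class; further names are stated as chosen later. Python 3.11.15, pandas 2.3.3 and numpy 2.4.6 were used. Alternatives were other call rules, 1 event per gene, and sets without levels of 0, without another length in Ler, by Ler coordinates, or without genes that have a neighbour within 500 bp. Sequences are printed for some of the named events only.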

Additional observations from a re-analysis of the deposited data

How the results depend on the processing

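The number of events called different between Col and Ler depended on the rule. It was 2 by the authors' mark, 4 with q under 0.05 and at least 10 points, 22 with q under 0.05 alone, and 0 with the mark and at least 20 points. It was 1 without events of another interval length in Ler (252 events left) and 1 without genes within 500 bp of another gene (50 left), where fewer events remain by construction. Of 64 alternative values for levels and differences, 62 stayed within the 95% binomial interval of the median over events. The others were the median difference (0.12 points in place of -0.05) and the median absolute difference (2.06 points) without genes near another gene, and the cause was not tested. Most alternatives kept nearly the same events (280 with 1 event per gene, 295 without levels of 0), so their values had little room to move. The interval also treats events as independent. By Ler coordinates the same 298 events have a step of 4 bp. No paired analysis was possible because the table holds 1 pooled value per ecotype, and for the same reason no replicate could be left out. The read depth, and so the counting error of each level, is unknown.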
